A study of Mus musculus with 63 samples.

Results

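The vacuolar proton pump (V-ATPase) was described through 10 rows of the gene table, chosen by gene symbol out of 55401: Atp6v0c, its processed pseudogene Atp6v0c-ps2, and 8 further genes of subunits and accessory proteins (Atp6v0a1, Atp6v0b, Atp6v0d1, Atp6v1a, Atp6v1b2, Atp6v1e1, Atp6ap1 and Atp6ap2). All 10 passed the filter on low counts that left 19974 genes for testing. The choice of genes had been made with the strain values of these libraries known, so the members' strain differences are given here without a test. The RNA was from dorsal hippocampi of male and female adolescents of 2 inbred mouse strains, DBA/2J and C57BL/6J, with 32 DBA/2J and 31 C57BL/6J libraries. Each mouse had received an acute injection of ethanol (EtOH, 1.5 g/kg) or saline, and had been put through fear conditioning (FC) or a control condition with none (noFC). In DBA/2J the 8 groups were male FC EtOH, male FC saline, male noFC EtOH, male noFC saline, female FC EtOH, female FC saline, female noFC EtOH and female noFC saline, with 4 libraries each. The same 8 groups of C57BL/6J had 4 libraries each, apart from male FC saline with 3. Nothing in the labels says that animals were pooled, and p-values measure the spread between these libraries.

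The V-ATPase pumps protons into lysosomes, endosomes and synaptic vesicles, where the acid interior drives degradation and the loading of neurotransmitter. Its cytosolic V1 sector breaks down ATP and turns a rotor. The rotor drives the proton-carrying ring of c subunits in the membrane-bound V0 sector, and Atp6v0c encodes the main subunit of that ring.

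The gene table held 21027659 to 61631742 counts per library, with a median of 26424411.5 counts in DBA/2J and 26379948 counts in C57BL/6J. A second table held estimated counts per transcript, which were summed per gene for comparison and are called the transcript table. All 10 hippocampal neuron markers were present, with a median summed level of 7420 CPM in DBA/2J and 7204 CPM in C57BL/6J (CPM, counts scaled to a common library size). The summed level of 12 choroid plexus markers, a sign of how much of that neighbouring tissue a sample held, ranged over 33.0 to 11443 CPM in DBA/2J libraries and 44.0 to 12508 CPM in C57BL/6J libraries. Each of the 10 oligodendrocyte markers differed between strains, with the lower level in DBA/2J (edgeR quasi-likelihood test, Benjamini-Hochberg adjusted p under 0.05). The median of their summed level was 10472 CPM in DBA/2J and 13776 CPM in C57BL/6J. Over all genes tested 50% were called, 25.5% higher in DBA/2J and 24.5% lower. Of 8 astrocyte markers 4 were higher and 1 lower, and of 10 microglia markers 2 were higher and 5 lower. Of the 10 neuron markers 1 was higher and 3 were lower, and of 8 endothelial markers 0 were higher and 2 lower. No choroid plexus marker was called. The part of these cell types in the strain values below was not tested. In tissue RNA, fewer cells of a type and less RNA per cell cannot be told apart.

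The sequences of Atp6v0c and its copies are shown first because the counts of the pair turn on how alike they are. Atp6v0c (ENSMUSG00000024121) lies at chr17:24163866-24169702 on the minus strand of GRCm38. Its main transcript, Atp6v0c-201, has 1183 bases in 3 exons, of which 465 bases are coding. Atp6v0c-ps2 (ENSMUSG00000080242) is a single-exon processed pseudogene of 465 bases at chr6:37806086-37806550 on the plus strand. Aligned over its whole length, Atp6v0c-ps2 matched the Atp6v0c coding sequence at 464 of 465 bases and had no gap. The 1 difference is T111C, counted from the A of the Atp6v0c start codon, with the base of Atp6v0c first. It lies at the 3′ base of codon 37, in exon 2, and both codons (AGT in Atp6v0c, AGC in the pseudogene) encode serine. A further annotated copy, Atp6v0c-ps1 (ENSMUSG00000108761, chr7:4412438-4412900, plus strand), was 97.61% identical, with 11 mismatches and 2 gap bases, and it carries T111C as well. Coding bases 37 to 185 are printed below from the GENCODE M21 transcripts, in lower case; the capital in Atp6v0c marks coding base 111, and capitals in the copies mark bases that differ from Atp6v0c.
Atp6v0c (chr17:24164777-24169248, minus strand, exons 1 and 2 joined): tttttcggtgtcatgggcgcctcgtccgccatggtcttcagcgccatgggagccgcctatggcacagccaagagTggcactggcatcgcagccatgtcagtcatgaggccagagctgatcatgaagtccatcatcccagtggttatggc
Atp6v0c-ps2 (chr6:37806122-37806270, plus strand): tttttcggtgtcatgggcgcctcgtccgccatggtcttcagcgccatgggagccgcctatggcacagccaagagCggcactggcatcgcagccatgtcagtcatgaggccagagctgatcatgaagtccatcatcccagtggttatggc
Atp6v0c-ps1 (chr7:4412472-4412620, plus strand): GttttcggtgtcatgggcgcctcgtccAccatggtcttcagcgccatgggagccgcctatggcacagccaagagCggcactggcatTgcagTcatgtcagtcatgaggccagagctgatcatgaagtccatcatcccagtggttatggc
In these 149 bases the pseudogene Atp6v0c-ps2 differs from Atp6v0c at the single capital, while Atp6v0c-ps1 differs at 5 bases.

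Reads in this study were 75 bases long. Of the 391 windows of that length in Atp6v0c-ps2, 80.8% occur letter for letter in Atp6v0c-201, and the other 75 all hold base 111. Seen from the parent, 28.5% of the 1109 windows of Atp6v0c-201 occur in another annotated gene. GRCm38, the build named in the submitters' processing notes, is the genome of C57BL/6J, and no DBA/2J sequence was used here. How much strain differences in sequence contribute to the counts below was not tested.

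In the gene table Atp6v0c was low in DBA/2J and its pseudogene was high. Atp6v0c had a lowest, median and highest level of 28.9, 32.5 and 39.1 CPM in the 32 DBA/2J libraries, against 120, 136 and 168 CPM in the 31 C57BL/6J libraries. Every DBA/2J library lay below every C57BL/6J library. The log2 difference, DBA/2J minus C57BL/6J, was -2.07 (SE 0.03), from means of 32.7 ± 2.34 CPM in DBA/2J and 137 ± 11.2 CPM in C57BL/6J (SD).

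Atp6v0c-ps2 ran the other way. It had 51.3, 70.3 and 82.5 CPM (lowest, median, highest) in DBA/2J libraries, against 0.0753, 0.244 and 0.762 CPM in C57BL/6J libraries. Again the strains did not overlap, and the log2 difference was 8.11 (SE 0.07). In raw counts this was 1330 to 3069 reads per DBA/2J library and 2 to 22 reads per C57BL/6J library. The second copy, Atp6v0c-ps1, stayed near 0 in both strains, with means of 0.128 ± 0.0678 CPM in DBA/2J and 0.128 ± 0.0778 CPM in C57BL/6J, and it did not pass the filter.

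The pseudogene took 61.7, 69.0 and 72.9% (lowest, median, highest) of the pair's counts in DBA/2J libraries, against 0.0598, 0.191 and 0.516% in C57BL/6J libraries. Over all libraries that was 63135 of 92205 counts in DBA/2J and 234 of 120228 counts in C57BL/6J. Adding both rows removed most of the gap but not all of it. The sum averaged 104 ± 6.70 CPM in DBA/2J and 137 ± 11.2 CPM in C57BL/6J, a log2 difference of -0.40 (SE 0.03). The DBA/2J sums of 83.2 to 116 CPM still lay wholly below the C57BL/6J sums of 120 to 168 CPM. Over all genes tested, 4.02% had strains that did not overlap in CPM, 1.96% with DBA/2J higher and 2.06% with it lower. These are values of the contrast that chose the genes, and nothing is read from that share.

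**Figure D1:**
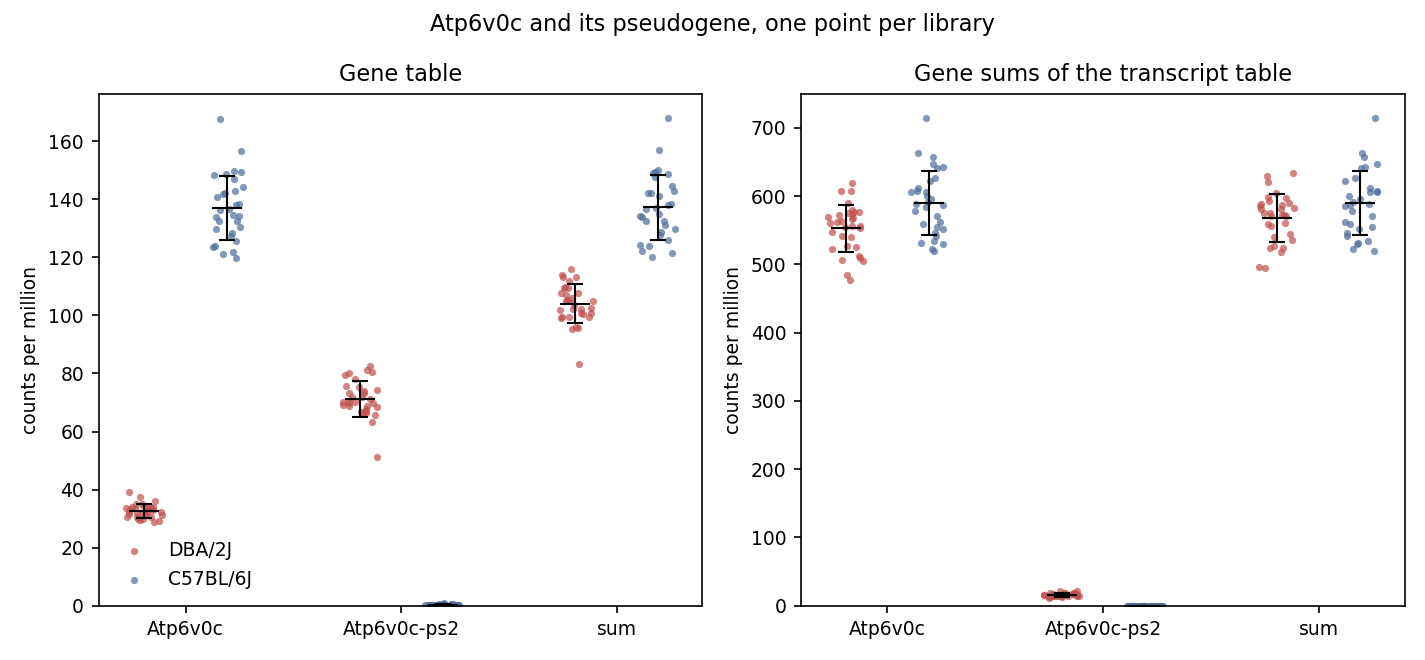
CPM of Atp6v0c, Atp6v0c-ps2 and their sum, 1 point per library, in the gene table (left) and in the transcript table summed per gene (right); black bars give the mean and SD of 32 DBA/2J (red) and 31 C57BL/6J (blue) libraries. In the gene table Atp6v0c averages 32.7 CPM in DBA/2J and 137 CPM in C57BL/6J, while in the transcript table the strains overlap at 553 and 590 CPM.

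The transcript table gave another picture of the same libraries. There Atp6v0c averaged 553 ± 34.5 CPM in DBA/2J and 590 ± 47.4 CPM in C57BL/6J, and the strains overlapped. The log2 difference was -0.09 (SE 0.03), against -2.07 in the gene table. Atp6v0c-ps2 averaged 15.7 ± 2.39 CPM in DBA/2J, and in C57BL/6J it was estimated at exactly 0 in 22 of 31 libraries. Its share of the pair was 2.13, 2.74 and 3.71% (lowest, median, highest) in DBA/2J and at most 0.0298% in C57BL/6J. The sum of the pair differed by -0.05 (SE 0.03) on the log2 scale. The direction for Atp6v0c was thus the same in both tables, but its size depended on the table.

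The tables also differed in how many reads they gave to the gene. The Atp6v0c count in the gene table was 5.67% of the estimated count in the transcript table in DBA/2J and 22.1% in C57BL/6J. Per library the ratio was 5.04 to 6.49% in DBA/2J and 20.6 to 24.1% in C57BL/6J. For the pair summed the median over libraries was 17.6% in DBA/2J and 22.1% in C57BL/6J. For the 8 other members the ratio was 98.2 to 100.3% in DBA/2J and 99.2 to 100.3% in C57BL/6J. At most 0.7% of the 75-base windows of those 8 genes occur in another annotated gene. For Atp6v0c-201 that share was 28.5%. How the reads of more than 1 origin were counted is not given in the sources used here, and the cause of the low ratios was not tested. The level of Atp6v0c and of its pseudogene in the gene table is uncertain in both strains.

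**Figure D2:**
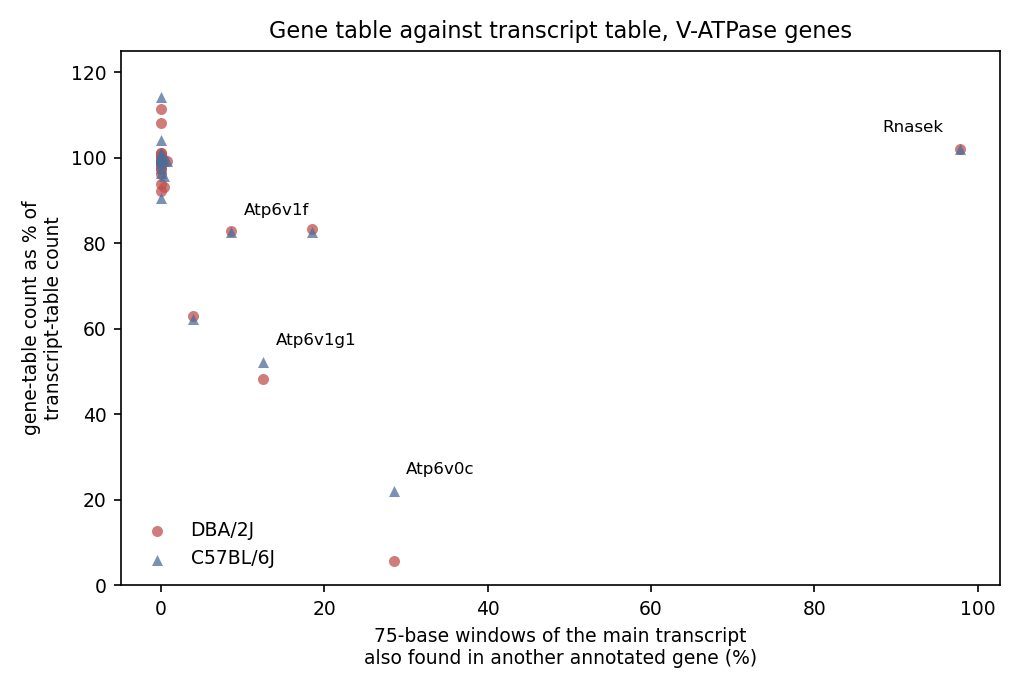
For each tested V-ATPase, assembly and regulation gene, the gene-table count as a percentage of the transcript-table count (y axis) against the percentage of 75-base windows of its main transcript that also occur in another annotated gene (x axis), with DBA/2J as red circles and C57BL/6J as blue triangles. Atp6v0c stands at 5.67% in DBA/2J and 22.1% in C57BL/6J, while most genes with no shared window lie near 100%; Atp6v0c-ps2 and Atp6v0a4, whose ratios exceed the axis, are left out.

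Genes of the pump that share windows had ratios of different sizes, and what set each ratio was not tested. Rnasek, a small membrane protein that associates with the pump, shares 97.8% of its windows with the annotated gene Gm21988. The sharing transcript of Gm21988 is annotated as nonsense-mediated decay, not as a processed pseudogene, and the positions of both genes were not compared. The ratio of Rnasek lay near 100% in both strains. Atp6v1g1, a peripheral stalk subunit, shares 12.5% of its windows with 2 processed pseudogenes, and its ratio was 48.4% in DBA/2J and 52.3% in C57BL/6J. Atp6v1f, a subunit of the central rotor, shares 8.6%, and its ratio was 82.8% in DBA/2J and 82.6% in C57BL/6J.

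The genes next to both loci differed less between strains than the separate gene-table values of Atp6v0c (-2.07) and Atp6v0c-ps2 (8.11). Only Svopl, BC028777 and CT010502.2 had differences larger in size than that of the pair's sum (-0.40), each at under 1 CPM. On chromosome 17, Amdhd2, an enzyme of amino sugar metabolism, differed by -0.11 (SE 0.03, adjusted p = 0.000334), and Pdpk1, a protein kinase upstream of Akt, by -0.06 (SE 0.02, adjusted p = 0.0091). On the other side Tbc1d24, a synaptic protein that is also counted among the regulators of the pump, differed by 0.18 (SE 0.02, adjusted p = 3.68e-10), and Ntn3, a netrin guidance cue, by 0.32 (SE 0.04, adjusted p = 6.75e-10). These are log2 differences, DBA/2J minus C57BL/6J, from edgeR's quasi-likelihood test. Around the pseudogene on chromosome 6, Creb3l2 (0.0019, adjusted p = 0.978) and Trim24 (0.01, adjusted p = 0.568) were not called. Nor were Svopl (0.56, SE 0.55, adjusted p = 0.418) and Atp6v0a4 (-0.04, adjusted p = 0.600). Svopl had 0.105 ± 0.127 CPM in DBA/2J and 0.080 ± 0.120 CPM in C57BL/6J. Dgki, a diacylglycerol kinase, was lower in DBA/2J by a difference of -0.09 (SE 0.04, adjusted p = 0.0425), and Ptn, a secreted growth factor, by one of -0.08 (SE 0.04, adjusted p = 0.0473). The largest differences near Atp6v0c were -0.76 (SE 0.22, adjusted p = 0.00261) for the antisense RNA BC028777 and 0.68 (SE 0.17, adjusted p = 0.000949) for CT010502.2, both at under 1 CPM.

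Among the other members of the V0 sector, Atp6v0b was the one that differed most. It encodes the c″ proteolipid of the ring. Atp6v0b had 157, 174 and 192 CPM (lowest, median, highest) in DBA/2J libraries, against 140, 155 and 167 CPM in C57BL/6J libraries, with a log2 difference of 0.16 (SE 0.02). The strains overlapped. Atp6v0a1, the a1 subunit that gives protons their path past the ring and the main a isoform of neurons, averaged 487 ± 28.9 CPM in DBA/2J and 468 ± 28.2 CPM in C57BL/6J, a difference of 0.06 (SE 0.02). Atp6v0d1, which joins the ring to the central stalk, averaged 194 ± 8.22 CPM in DBA/2J and 194 ± 9.34 CPM in C57BL/6J, a difference of 0.0038 (SE 0.02).

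For each of the 3 members of the V1 sector the strains lay close together. Atp6v1a, the catalytic A subunit, averaged 568 ± 43.8 CPM in DBA/2J and 565 ± 32.05 CPM in C57BL/6J. Its log2 difference was 0.0083 (SE 0.03). Atp6v1b2, the B2 subunit that binds nucleotide beside it and is the brain isoform, averaged 574 ± 36.9 CPM in DBA/2J and 551 ± 36.8 CPM in C57BL/6J, a difference of 0.06 (SE 0.02). Atp6v1e1, a stalk subunit that holds the catalytic head still, averaged 246 ± 12.4 CPM in DBA/2J and 244 ± 12.6 CPM in C57BL/6J, a difference of 0.01 (SE 0.02).

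Of the accessory proteins, Atp6ap2 had the larger strain difference. Atp6ap1 (Ac45), which helps assemble the V0 sector, averaged 285 ± 12.8 CPM in DBA/2J and 281 ± 10.6 CPM in C57BL/6J, a log2 difference of 0.02 (SE 0.02). Atp6ap2, the prorenin receptor and a part of the assembled pump, averaged 180 ± 14.1 CPM in DBA/2J and 191 ± 15.03 CPM in C57BL/6J, a difference of -0.09 (SE 0.03). All 8 members outside the pair had overlapping strains, and their differences in the transcript table were within 0.03 of those in the gene table on the log2 scale.

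**Figure D3:**
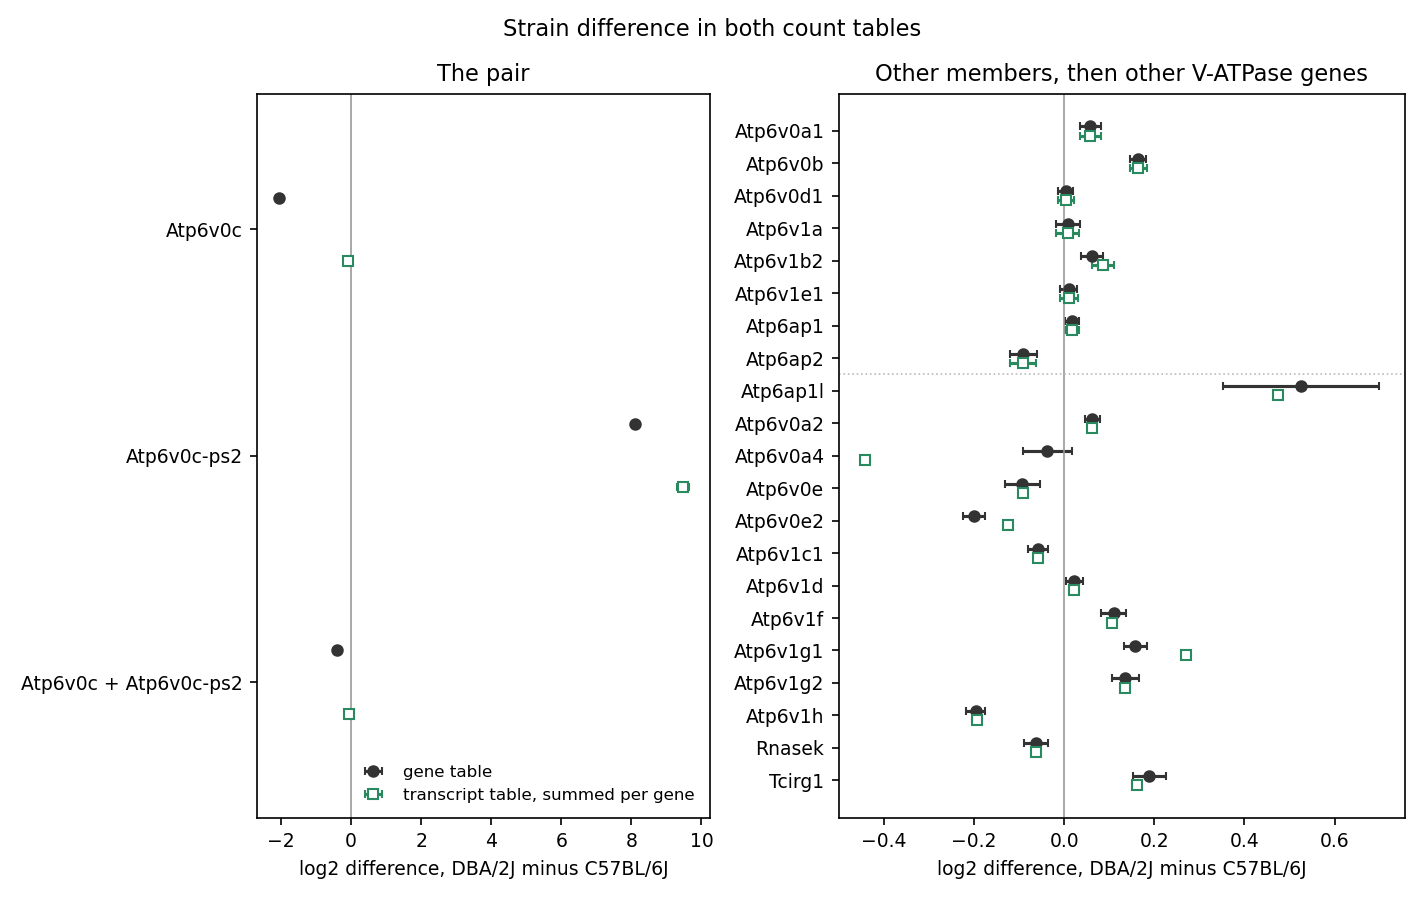
Log2 difference, DBA/2J minus C57BL/6J, of the pair (left) and of the other members above the dotted line and other V-ATPase genes below it (right), from the gene table (filled circles) and the transcript table (open squares); bars are SE where drawn. Atp6v0c stands at -2.07 in the gene table and -0.09 in the transcript table, while the 8 other members lie between -0.09 and 0.16 in both; Atp6v1c2, at 1.45, is left out to keep the axis readable.

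Levels between genes were compared per kilobase, with the length of all annotated exons of each gene. That length can exceed the main transcript, so the order below holds for this length alone. The main transcripts of Atp6v0d1, Atp6v1b2, Atp6v0b and Atp6v1e1 have 1629, 2825, 1000 and 1312 bases. An order per kilobase of main transcript was not made and could differ. Over both strains Atp6v0d1 (108 CPM per kb) and Atp6v1b2 (106 CPM per kb) were highest among the members, then Atp6v1a (93.8) and Atp6ap1 (93.5), Atp6v0b (80.2), Atp6v0a1 (72.8), Atp6ap2 (70.8) and Atp6v1e1 (59.6 CPM per kb). Neighbours in each of the pairs Atp6v0d1 and Atp6v1b2, Atp6v1a and Atp6ap1, and Atp6v0a1 and Atp6ap2 lay closer together than the spread between libraries. Atp6v0c stood at 9.66 CPM per kb in DBA/2J and 40.5 CPM per kb in C57BL/6J in the gene table. The kidney and bone isoforms Atp6v1b1, Atp6v1g3 and Atp6v0d2 and the testis isoform Atp6v1e2 were near 0 and did not pass the filter.

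The pump's other genes were not members, and their strain differences were tested. Their list was also chosen with earlier results of these data known, so nothing is read from how many were called. Of 18 listed genes of the V1 sector, V0 sector and accessory proteins outside the members, 14 were tested: 7 were higher in DBA/2J, 5 were lower and 2 were not called (edgeR quasi-likelihood test, Benjamini-Hochberg adjusted p under 0.05). Over all 19974 genes 50% were called, 25.5% higher and 24.5% lower. The median log2 difference of the 14 was 0.04, against 0.0051 over all genes tested.

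Most of these differences were small. Atp6v1h, the regulatory H subunit, had 105 ± 6.90 CPM in DBA/2J and 120 ± 6.19 CPM in C57BL/6J, a log2 difference of -0.20 (SE 0.02, adjusted p = 9.35e-12). Atp6v0e2, an e subunit of the membrane sector, had 270.2 ± 16.8 CPM in DBA/2J and 310.9 ± 21.8 CPM in C57BL/6J, a difference of -0.20 (SE 0.02, adjusted p = 6.73e-10). Atp6v1g2, the stalk subunit of neurons, was the highest V-ATPase gene per kilobase of all annotated exons. It had 410 ± 32.6 CPM in DBA/2J and 374 ± 31.3 CPM in C57BL/6J, a difference of 0.14 (SE 0.03, adjusted p = 0.000107). The log2 difference of Atp6v1g1 was 0.16 (SE 0.02, adjusted p = 2.36e-07) in the gene table, and 0.27 in the transcript table.

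Atp6v1c2, an isoform of the C subunit, had the largest log2 difference of the 14, 1.45 (SE 0.15, adjusted p = 1.75e-12), but at 1.61 ± 0.416 CPM in DBA/2J and 0.604 ± 0.340 CPM in C57BL/6J. The ubiquitous C subunit Atp6v1c1 averaged 205 ± 13.3 CPM in DBA/2J and 214 ± 12.6 CPM in C57BL/6J, lower by 0.06 on the log2 scale (adjusted p = 0.0331). Tcirg1, the a3 subunit best known from osteoclasts, differed by 0.19 (SE 0.04, adjusted p = 1.18e-05), at 15.05 ± 1.72 CPM in DBA/2J and 13.2 ± 1.35 CPM in C57BL/6J. The calls of Atp6v1c1, Atp6v0e and Rnasek were lost when single libraries were left out, with largest adjusted p of 0.0707, 0.0846 and 0.112. Of 11 tested genes for assembly and regulation of the pump, 3 were higher in DBA/2J, among them Tbc1d24, and 2 were lower: Oxr1, which protects against oxidative stress (-0.20, adjusted p = 1.62e-05), and Vma21, an assembly factor of the V0 sector (-0.13, adjusted p = 0.0398).

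No member was called for ethanol, in either strain. In DBA/2J the test called 59 of all genes (0.295%; 0.135% higher and 0.16% lower) and 0 of the 10 members, with 0 members at an unadjusted p under 0.05 and 0 called by DESeq2. Atp6v0c averaged 32.6 ± 1.92 CPM in ethanol and 32.7 ± 2.77 CPM in saline DBA/2J libraries (SD, n = 16 each), and its log2 difference was -0.0031 (95% confidence interval -0.083 to 0.077). In C57BL/6J it averaged 136 ± 9.502 CPM with ethanol (n = 16) and 138 ± 12.9 CPM with saline (n = 15), a difference of -0.03 (interval -0.10 to 0.05). Here 18 of all genes were called (0.0901%; 0.035% higher and 0.0551% lower), and 0 of the members by edgeR or DESeq2. Atp6ap1 alone had an unadjusted p under 0.05 among members, at -0.05 (interval -0.09 to -0.00027, adjusted p = 0.99997).

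Leaving the pseudogene aside, the 95% intervals of the 9 other members ran from -0.10 to 0.08 for ethanol in DBA/2J and from -0.10 to 0.09 in C57BL/6J. Changes beyond that size lay outside the intervals of every one of those members. In DBA/2J all 10 differences were negative, with a median of -0.02 against 0.0026 over all genes; the members share libraries, so their signs are not independent. In the same libraries the median log2 difference was 0.16 for the 10 oligodendrocyte markers and -0.33 for the 12 choroid plexus markers, and their part was not tested. The difference of the ethanol effect between strains was called for 0 of 10 members by edgeR's interaction test and by DESeq2, with 0 at an unadjusted p under 0.05 (0.01% of all genes were called). Without the pseudogene the intervals of that difference ran from -0.14 to 0.13.

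No member was called for fear conditioning. In DBA/2J Atp6v0c averaged 33.1 ± 2.98 CPM in FC and 32.3 ± 1.46 CPM in noFC libraries (n = 16 each), a log2 difference of 0.04 (interval -0.05 to 0.12). In C57BL/6J it averaged 135 ± 12.3 CPM in FC (n = 15) and 139 ± 9.94 CPM in noFC (n = 16), a difference of -0.04 (interval -0.12 to 0.03). By edgeR 0 of all 19974 genes (0%) were called in either strain, with 670 genes in DBA/2J and 786 genes in C57BL/6J at an unadjusted p under 0.05, and none of those was a member. DESeq2 called 0 genes in DBA/2J and 2 in C57BL/6J, and again no member. All 10 members had a negative difference in C57BL/6J and 8 of 10 a positive one in DBA/2J. Their medians were -0.03 in C57BL/6J and 0.03 in DBA/2J, against 0.0005 and 0.0010 over all genes. The members share libraries, so their signs are not independent. The choroid plexus markers had a median log2 difference of 1.73 in DBA/2J and -0.03 in C57BL/6J, and in DBA/2J 9 of the 12 had an unadjusted p under 0.05, with 0 called by edgeR or DESeq2; their part in the members' values was not tested. The test of the difference between the strains' effects called 0 genes (0%; 725 genes, and 0 members, at an unadjusted p under 0.05), and the members' interaction values without the pseudogene had intervals from -0.09 to 0.21.

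**Figure D4:**
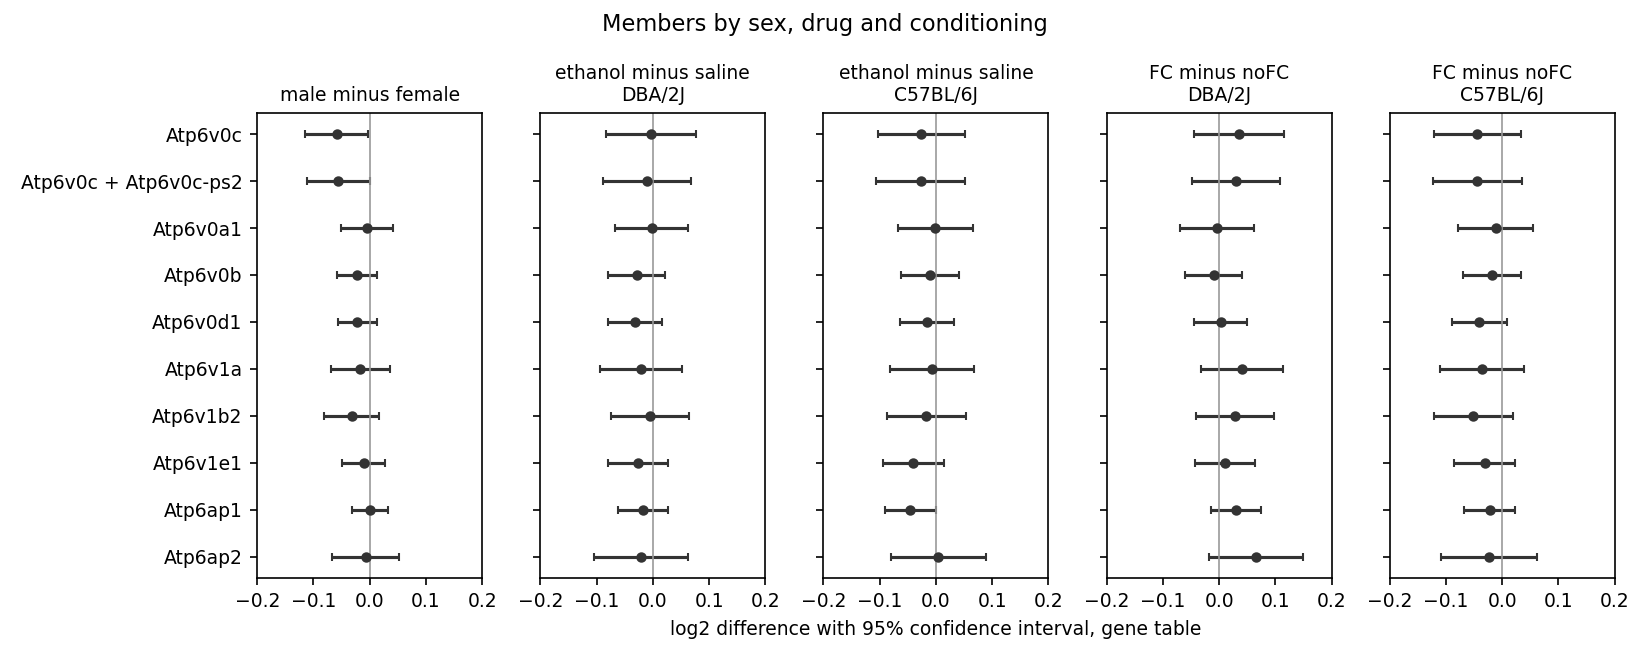
Log2 differences with 95% confidence intervals (gene table, edgeR) of 9 members and of the pair's sum for male minus female, ethanol minus saline in DBA/2J and in C57BL/6J, and FC minus noFC in DBA/2J and in C57BL/6J. No member was called in any panel, and every interval lies within the axis range of -0.2 to 0.2; Atp6v0c-ps2 is left out because its near-0 counts in C57BL/6J give wide intervals.

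Sex and the remaining interactions called no member either. Between males and females 40 genes were called (0.2% of those tested; 0.0801% higher in males and 0.12% lower), 0 of them members by edgeR or DESeq2. Atp6v0c had the largest difference among the protein-coding members, -0.06 in males (interval -0.11 to -0.0026, unadjusted p = 0.0406, adjusted p = 0.896). It averaged 32.1 ± 2.14 CPM in male and 33.3 ± 2.47 CPM in female DBA/2J libraries, and 134 ± 8.70 CPM in male and 140 ± 12.5 CPM in female C57BL/6J libraries. For the effect of ethanol by conditioning and the effect of sex by strain, edgeR and DESeq2 called 0 of all genes (0% each), with 592 and 710 genes at an unadjusted p under 0.05 by edgeR. In each of those 2 the pseudogene was the single member at such a p, and in C57BL/6J that row holds 2 to 22 reads a library. Ethanol, conditioning and sex also called 0 of the 14 other V-ATPase genes by edgeR or DESeq2. At an unadjusted p under 0.05 edgeR had Tcirg1 for sex (0.10) and Tcirg1 (0.10) and Atp6v1d (-0.06) for ethanol in DBA/2J, all log2 differences and named for those p values after they were seen.

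The 8 groups within a strain were close to each other. In DBA/2J the group means of Atp6v0c ran from 31.5 ± 1.80 CPM (male FC saline) to 35.5 ± 3.68 CPM (female FC saline), with n = 4 each. In C57BL/6J they ran from 128 ± 6.00 CPM (male FC EtOH) to 141 ± 12.1 CPM (female noFC EtOH). No neighbours in either order differed by more than the larger of their SDs.

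The share of the pair's counts that fell on the pseudogene differed little between treatments in DBA/2J, next to its spread between libraries. It was 68.5 ± 1.62% with ethanol and 68.5 ± 3.12% with saline, a difference of 0.0036 percentage points. It was 68.5 ± 2.37% in FC and 68.5 ± 2.59% in noFC libraries, and 68.6 ± 1.83% in males and 68.4 ± 2.996% in females (n = 16 in each of these groups). In 2-sided permutation tests with 100000 resamples, each of the 3 differences had an adjusted p of 0.997 (Benjamini-Hochberg over the 3 tests).

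**Figure D5:**
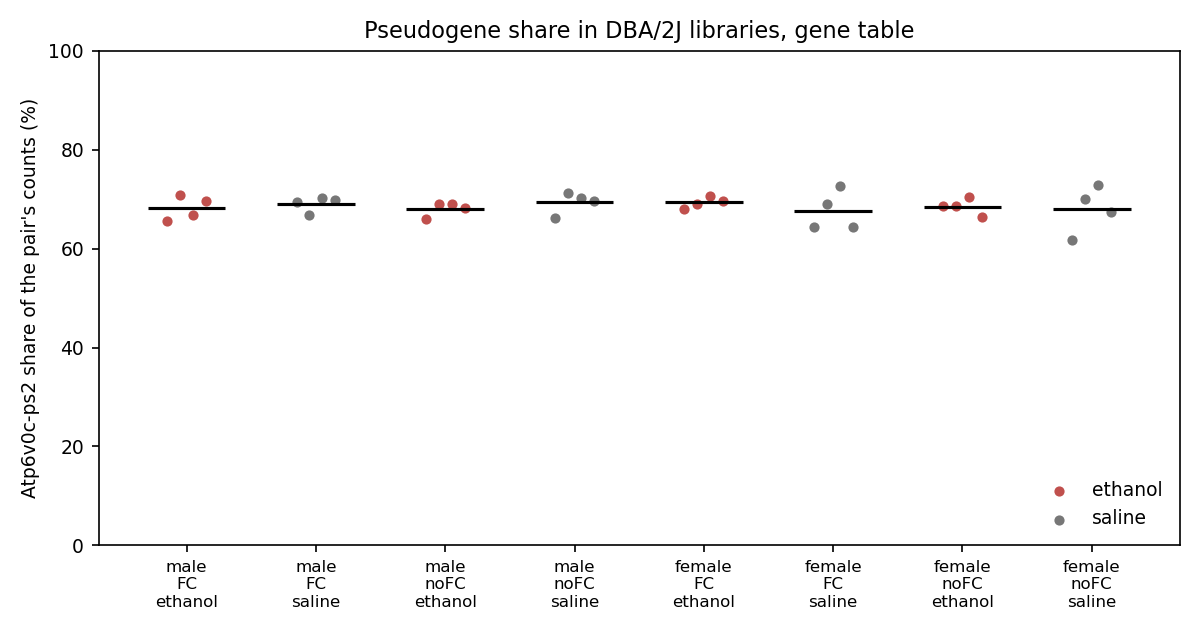
Share of the pair's gene-table counts on Atp6v0c-ps2 in each DBA/2J library (points; ethanol red, saline grey) for the 8 groups of 4 libraries, with a bar at each group's mean. All 32 libraries lie between 61.7 and 72.9%, and the group means between 67.6 and 69.3%.

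The members varied together from library to library to different degrees. After each strain's mean was removed, the 36 pairs among the 9 members other than the pseudogene had Pearson correlations of log2 CPM from -0.18 to 0.83 over 63 libraries, with a median of 0.45. The highest was between Atp6v0d1 and Atp6v1b2. Atp6v0c correlated with Atp6v0d1 (0.59), Atp6v1b2 (0.59) and Atp6v0a1 (0.58), and not with Atp6ap2 (-0.11). Its correlation with its pseudogene was 0.10. In the strain where the pseudogene had few reads, counting error adds to its spread. That value therefore cannot show whether parent and pseudogene vary together. These values describe libraries that share tissue make-up and depth, and carry no test.

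Across all genes, those most like Atp6v0c by this measure were Reep6 (0.72), Aldoa (0.70), Uchl1 (0.69), Adprh (0.69) and Atp9a (0.68). Those most like the sum of the pair were Npcd (0.81), Aldoa (0.81), Actg1 (0.79), Mapk8ip2 (0.78) and Slc25a22 (0.78). The pseudogene's nearest were AC165951.1 (0.63), Gm13394 (0.62), Gm8420 (0.51), Gm47015 (0.50) and Tmcc2 (0.48). The same counting error bears on this last list, and its part was not tested.

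The main transcripts held close to the same share of their gene in both strains for Atp6v0c and Atp6v1a. Atp6v0c-201 held 97.8 ± 0.403% of the Atp6v0c estimate in DBA/2J and 97.8 ± 0.278% in C57BL/6J. Among the members' main transcripts, that of Atp6v1a had the lowest share of its gene, with 69.5 ± 5.76% of its estimate on Atp6v1a-202 in DBA/2J and 69.8 ± 5.30% in C57BL/6J, and most of the rest on Atp6v1a-201. The CACGTG motif, the core of the sites bound by the lysosomal regulator TFEB and by other factors, was searched on both strands of RefSeq's promoter windows around each gene's start (GRCm38.p6). It occurred in 3 of 8 members with an entry (Atp6v0b, Atp6v0d1 and Atp6v1a) and in 8.1% of 27025 genes. Among all listed V-ATPase subunit and accessory genes with an entry it occurred in 4 of 19 (21.1%). A longer palindromic form with the same core occurred in 0 of the 8 members, 0 of the 19 and 0.4% of all genes. A match is no evidence of binding.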

How the data were processed

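Libraries were made with a stranded poly(A) kit and sequenced as single reads, per the labels' protocols. The submitters' processing notes name fastp, HISAT2, featureCounts, Salmon and DESeq2 and the build GRCm38, with no roles or versions. The gene table holds whole read counts as the authors deposited them; the transcript table holds deposited estimated counts, which were summed per gene by the GENCODE M21 annotation and rounded for fitting. Strand and multi-mapping settings are not given in the sources used here. Of 55401 gene IDs, 55141 were in GENCODE M21.

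Genes with enough reads by filterByExpr (minimum count 10) were fitted with edgeR 4.0.16 (R 4.3.3), TMM factors and 1 coefficient for each of 16 groups over 63 libraries; contrasts averaged groups, tests were 2-sided, and genes were called at a Benjamini-Hochberg adjusted p under 0.05 over all genes tested. CPM used TMM-scaled totals. Correlations used log2 CPM with a prior count of 2. DESeq2 1.42.0 served as an alternative. The fit was tested on simulated data for ethanol within strains alone, with the same spread for all genes and changes put into well-counted genes. That simulation does not bear on low-count rows, the strain contrast or the interactions. No libraries were identical, and replicates differed by more than counting noise. The members and gene lists were chosen with earlier results of these data known. Named genes were all members, up to 8 called genes of a list with the smallest p, annotated pseudogenes of the pump's genes, members' transcripts with at least 5% of a gene's counts, the 3 nearest tested genes on each side of the pair, and the 5 genes most like each of the pair and its sum. Counting error is small at these depths except in rows with few reads. Those include the pseudogene in C57BL/6J, Atp6v0c-ps1, and the neighbours Svopl, BC028777 and CT010502.2.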

Additional observations from a re-analysis of the deposited data

How the results depend on the processing

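No member was called for sex, ethanol, conditioning or any interaction under DESeq2, RLE factors, library totals alone, no filter on low counts, transcript-table sums, either set of title numbers alone, or with any of the 63 libraries left out (lowest and highest count 0; dispersions kept from all libraries). Fitting each strain alone, run for ethanol and conditioning within a strain, called none either. The strain difference of Atp6v0c moved to -0.092 with transcript-table sums, that of Atp6v0c-ps2 to 9.47, and that of their sum to -0.051; the cause was not tested. Leaving out 1 library kept these at -2.07 to -2.06, 8.07 to 8.20 and -0.41 to -0.39. The 12 other V-ATPase genes called between strains became 8 in the lower-numbered and 7 in the higher-numbered set of titles alone. Each set holds fewer samples than the main fit. The count was 10 with library totals alone, 11 with no filter on low counts, and 10 to 12 with 1 library left out. The share differences ranged over -0.45 to 0.30 points for ethanol, -0.39 to 0.36 for conditioning and -0.16 to 0.59 for sex on leaving out 1 DBA/2J library. They changed sign between the sets of titles. The lower-numbered set alone gave 0.84 points for ethanol, 0.23 for conditioning and 0.72 for sex (permutation test, adjusted p = 0.866 each). The higher-numbered set alone gave -0.83, -0.10 and -0.14 points in that order (permutation test, adjusted p = 0.925 each). Whether same-numbered libraries pair was not settled: their deviations correlated at a median of 0.04 over 93 pairs, with 32 over 0.1. Between libraries of different numbers the median was -0.06. Each title number holds libraries of a single strain and sex, so the strain and sex contrasts could not be fitted with the number as a block. With the title number as a replicate block, 0 members were called for ethanol and conditioning, and the share differences had an adjusted p of 0.996 in the permutation test. Calls over all genes for ethanol in DBA/2J, 59 as reported, ranged from 15 in the higher-numbered set to 109 with the block. With the block, genes at an unadjusted p under 0.05 by edgeR went from 1669 to 2048 for ethanol in DBA/2J and from 842 to 1110 in C57BL/6J. For conditioning they went from 670 to 872 in DBA/2J and from 786 to 958 in C57BL/6J. For ethanol in C57BL/6J the 18 calls became 0 in the lower-numbered set and 1 in the higher-numbered set. Leaving out 1 library, fitting the higher-numbered set or using library totals alone each ended the strain calls of Atp6v1c1, Atp6v0e and Rnasek. Depth limits the pseudogene in C57BL/6J.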

Other observations

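Genes of the compartments that the pump acidifies showed strain differences in both directions. Their lists were chosen with earlier results of these data known. Of 29 genes of lysosomal membranes and enzymes, 6 were higher and 7 lower in DBA/2J (edgeR quasi-likelihood test, adjusted p under 0.05, against 50% of all genes called). Ppt1, a palmitoyl-thioesterase, had 119 ± 5.82 CPM in DBA/2J and 96.0 ± 4.26 CPM in C57BL/6J, a log2 difference of 0.31 (SE 0.02, adjusted p = 2.8e-22). Lamp1, a membrane glycoprotein of lysosomes, had 306 ± 21.2 CPM in DBA/2J and 337 ± 25.4 CPM in C57BL/6J, a difference of -0.14 (SE 0.03, adjusted p = 2.32e-05). Of 17 lysosomal regulators 4 were higher and 5 lower, and the list's median log2 difference was 0.02. The higher ones were Mitf (0.24), Zkscan3 (0.10), Lamtor4 (0.07) and Tfe3 (0.07), of which Lamtor4 falls outside the rule for named genes and was added after its value was seen. The lower ones were Lamtor1 (-0.37, adjusted p = 5.62e-18), Lamtor3 (-0.20, adjusted p = 5.81e-13), Rragd (-0.26, adjusted p = 5.99e-12), Slc38a9 (-0.11, adjusted p = 5.94e-07) and Rraga (-0.09, adjusted p = 0.000669). In the transcript table Lamtor3 ran the other way, at 0.11 (adjusted p = 4.24e-07), and Lamtor1 stood at -0.13, so neither level is settled.

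Of 22 synaptic vesicle genes, 7 were higher and 2 lower in DBA/2J, against 25.5% higher and 24.5% lower over all genes tested. Synpr, which encodes synaptoporin, had 70.5 CPM in DBA/2J and 129 CPM in C57BL/6J, a log2 difference of -0.87 (SE 0.04, adjusted p = 6.02e-24). Vamp2, the vesicle SNARE, had 982 CPM in DBA/2J and 911 CPM in C57BL/6J, a difference of 0.11 (SE 0.03, adjusted p = 0.000379). Ethanol, conditioning and sex called 0 genes of these 3 lists by edgeR or DESeq2; for ethanol in DBA/2J, 3 of 29, 3 of 17 and 1 of 22 genes, in the order given, had an unadjusted p under 0.05 by edgeR, against 1669 of all 19974 genes.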
